A study of Gallus gallus with 8 samples.

Results

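Among 17108 chicken genes, 33 were near silent in neural crest cells grown without DAN and expressed in every dish that received 10 µg/ml of it. The genes were chosen by their deposited RPKM, a read density that accounts for gene length and library size. A gene was kept when this value was below 0.1 in both untreated libraries and at least 0.3 in all 3 libraries at 10 µg/ml. Since these values chose the genes, the difference between 10 µg/ml and untreated cells is a description and was not tested. The libraries at 1 µg/ml were not used in the choice. Genes are ranked from 1 to 33 by their mean RPKM at 10 µg/ml. The files give Ensembl IDs without symbols. A reference table of 25635 chicken genes shared 0 IDs with the files, so the 33 genes have no names, roles or sequences in what follows. For the same reason the markers of crest, neural tube, ectoderm and other cells were not read, and the labelled cell type was not compared with them.

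Messenger RNA was sequenced from cranial neural crest cells of leghorn chicken embryos at Hamburger and Hamilton stage 8. Neural tube pieces from the level of rhombomeres 3 to 5 were plated on fibronectin and poly-D-lysine, the crest cells migrated out overnight, and the tubes and any ectoderm were then lifted away. The groups differ in the DAN/NBL1 protein added to the medium: none in 2 untreated libraries (replicates 2 and 3), 1 µg/ml in 3 libraries and 10 µg/ml in 3 libraries (replicates 1, 2 and 3 of each). The labels give 200 to 1000 cells per sample and 3 biological replicates per condition, but the series holds no untreated replicate 1. Whether these dishes came from separate embryos or days is not said in the labels, so p-values measure the spread between these samples. Total counts ran from 44338765 to 199084828 per library, and 15045 to 16239 genes had a count. In bulk samples of this kind, fewer cells of a type and less RNA per cell cannot be told apart.

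Neural crest cells leave the dorsal neural tube as a migratory stream and give rise to much of the skeleton, pigment and peripheral nervous system of the head. Bone morphogenetic proteins act on their formation, departure and later fate. DAN, the product of NBL1, is a secreted cystine-knot protein that binds such ligands outside the cell and keeps them from their receptors, so that it belongs to the same broad class of antagonists as Noggin, Chordin and Gremlin. By its title the study concerns the restraint of crest invasion by DAN, and the dose series asks which transcripts of the migrating cells respond to the protein.

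Of the 17108 genes, 3039 (17.8%) were below 0.1 RPKM in both untreated libraries, and the 33 make up 1.09% of those. Of the 3006 others, 2864 reached 0.3 RPKM in none of the libraries at 10 µg/ml, 110 in 1 and 32 in 2. A total of 276 of the 3039 had no count in any of the 8 libraries. The reverse rule, with at least 0.3 RPKM in both untreated libraries and under 0.1 in all at 10 µg/ml, held for 25 genes. At the edges of the rule, the lowest library at 10 µg/ml stood at 0.306, 0.308 and 0.317 RPKM in the 3 genes nearest the limit inside it, and at 0.290, 0.289 and 0.268 RPKM in the 3 nearest outside. The higher untreated library stood at 0.099, 0.097 and 0.095 RPKM just inside, and at 0.109, 0.111 and 0.113 RPKM just outside. The set depended on both untreated libraries: applied without untreated replicate 3 the rule held for 182 genes, and without untreated replicate 2 for 70.

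At 10 µg/ml most of the 33 genes were expressed at a low level. Their mean RPKM over the 3 libraries ran from 0.333 to 4.59, with a median of 0.717. It was at least 1 in 10 genes, between 0.5 and 1 in 15 and under 0.5 in 8. The untreated means ran from 0 to 0.079 RPKM. Summed over the 33 genes, the 2 untreated libraries had 0.711 and 1.29 RPKM, replicates 1, 2 and 3 at 1 µg/ml had 21.7, 31.9 and 11.1, and those at 10 µg/ml had 35.4, 33.3 and 28.5. Every library with DAN lay above both untreated ones, which for 10 µg/ml was fixed by the rule, while the doses overlapped in replicate 2 at 1 µg/ml. The 3006 other near-silent genes, also picked by low untreated values but short of the limit at 10 µg/ml, summed to 56.7 and 65.3 RPKM in untreated libraries, to between 95.5 and 142 at 1 µg/ml, and to between 115 and 135 at 10 µg/ml.

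**Figure D1:**
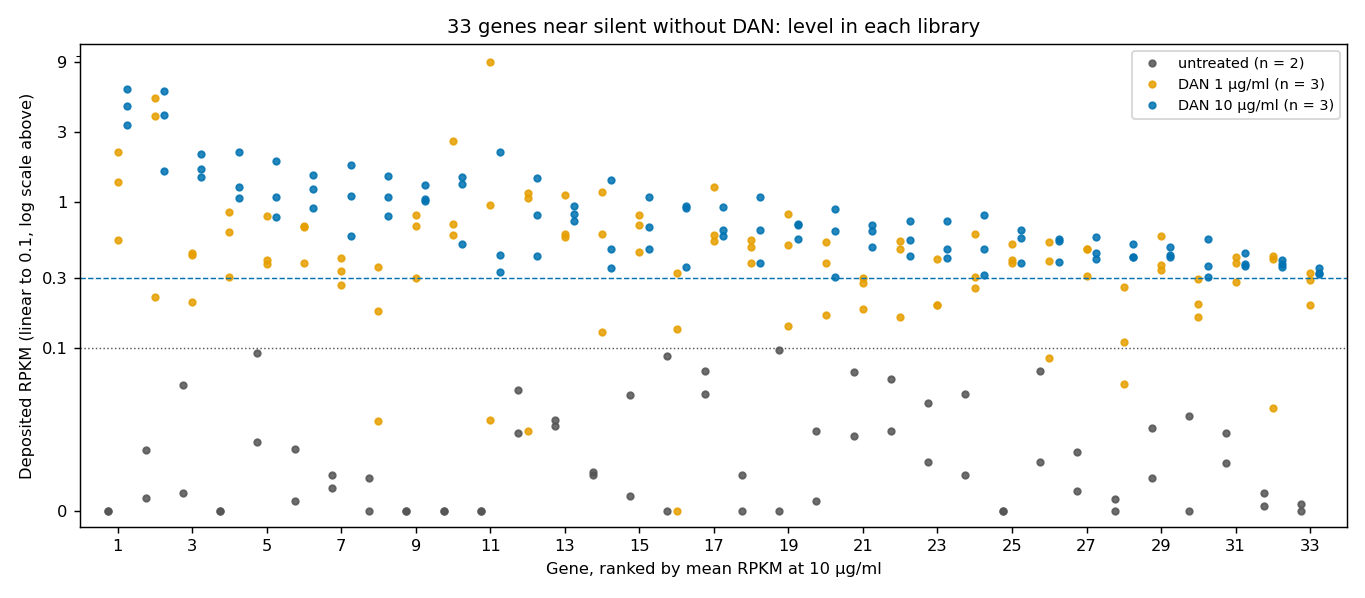
Deposited RPKM of the 33 genes in each of 8 libraries, ranked by the mean at 10 µg/ml along the horizontal axis; the vertical axis is linear up to 0.1 and logarithmic above, each point is 1 library, and the dotted and dashed lines mark the limits of 0.1 and 0.3 RPKM that chose the genes. The points at 1 µg/ml were not used in the choice. In 12 genes they all lie below those at 10 µg/ml, in 21 the doses overlap, and they reach 9.01 RPKM at rank 11. The rule set the untreated points apart from those at 10 µg/ml, which favours points at 1 µg/ml lying between them.

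The most abundant of the 33 genes was ENSGALG00000014994, of 1892 bases. It had no count in either untreated library, 1.36, 2.19 and 0.548 RPKM at 1 µg/ml, and 5.91, 3.35 and 4.51 RPKM at 10 µg/ml. Every library at 10 µg/ml lay above every library at 1 µg/ml, and replicate 3 was the lowest at the lower dose. At the mean level of 10 µg/ml the untreated libraries would have held 1373 counts. Against a floor of 3 counts over the untreated group, its mean of 4.59 ± 1.28 RPKM (SD, n = 3) at 10 µg/ml was 458-fold higher. Its 1.37 ± 0.822 RPKM (SD, n = 3) at 1 µg/ml was 136-fold higher than that floor. Both folds take the mean with DAN as exact.

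ENSGALG00000020679, of 4498 bases, was second. Its values were 0.008 and 0.037 RPKM untreated, 3.85, 5.15 and 0.225 RPKM at 1 µg/ml, and 3.91, 5.77 and 1.63 RPKM at 10 µg/ml. Replicate 3 was the lowest and replicate 2 the highest at both doses, and the doses overlapped. Its mean of 3.08 ± 2.55 RPKM (SD, n = 3) at 1 µg/ml was 137-fold the untreated mean of 0.0225 RPKM, and its 3.77 ± 2.07 RPKM (SD, n = 3) at 10 µg/ml 167-fold. These 2 genes together made up 21.6% to 27.7% of the summed RPKM of the 33 at 10 µg/ml. At the lower dose they made up 6.95% to 24.0%.

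In the untreated libraries the 33 genes held 381 counts in all, where their mean levels at 10 µg/ml would have given 11265. Of the 33, 6 had no count in either untreated library, 5 had 1 to 3 counts over both, and 22 had more. Among these 22, the mean at 10 µg/ml was 8.55-fold to 167-fold the untreated mean, with a median of 16.7-fold. At 1 µg/ml the same 22 genes stood 3.90-fold to 137-fold above untreated, with a median of 12.2-fold. For the 6 genes with no untreated count, the mean at 10 µg/ml stood 2.01-fold to 458-fold above a floor of 3 untreated counts. That floor covers the untreated counting error only, and the mean with DAN is taken as exact. The gene at rank 33, with 1 untreated count, had 0.325, 0.352 and 0.322 RPKM at 10 µg/ml, against 0 and 0.004 RPKM untreated. Its ratio of summed counts at 1 µg/ml over untreated, scaled by the adjusted library totals of each group, was 104 (95% counting interval 18.5 to 4127). At rank 8, with 2 untreated counts, that ratio was 26.8 (7.26 to 224). Over the 5 genes with 1 to 3 untreated counts it ran from 3.48 to 104. The lowest were the short genes at rank 16, at 3.48 (0.467 to 155), and rank 19, at 9.58 (1.55 to 395). The interval of rank 16 thus includes equal levels. The intervals cover counting error only and, since the untreated counts were chosen low, test nothing. The libraries of rank 8 had 1.49, 1.08 and 0.805 RPKM at 10 µg/ml, against 0.180, 0.359 and 0.055 RPKM at 1 µg/ml, and did not overlap.

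The 33 genes fell into 2 classes of length, which set how many reads stand behind an RPKM of 0.3. In 28 genes the length ran from 659 to 6380 bases, with a median of 1973. The other 5 were 72 to 105 bases long, at ranks 9, 10, 16, 19 and 25. Genes under 200 bases made up 15.2% of the 33, 10.6% of the 2763 near-silent genes with a length and 7.97% of all 16832 genes with one. In the 5 short genes, 0.3 RPKM was worth 0.934 to 1.36 counts in replicate 2 at 10 µg/ml. There 1 count was enough to pass the limit in the gene of 72 bases, and 2 counts in the others. The 5 short genes held 2 to 17 counts per library at 10 µg/ml, and 8 to 27 over the group. The 28 longer genes held 9 to 1923 counts per library at 10 µg/ml, and 68 to 3583 over the group.

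The untreated silence of the short genes was correspondingly less certain. At their mean level of 10 µg/ml they would have held 6.04 to 18.4 counts over both untreated libraries, where 3 of them held none and the other 2 held 1 each. The gene of 72 bases at rank 25 had no untreated count, 6, 2 and 3 counts at 1 µg/ml, and 3, 2 and 3 counts at 10 µg/ml. Against a floor of 3 untreated counts, its mean stood 2.01-fold higher at 10 µg/ml and 1.64-fold higher at 1 µg/ml. These values leave out the counting error of its 8 and 11 summed counts at those doses, so they are not lower limits. The longer genes would have held 43.6 to 2680 untreated counts at their level of 10 µg/ml, where 0 to 56 were found. Of the 28 longer genes, 3 had no untreated count, at ranks 1, 4 and 11.

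**Figure D2:**
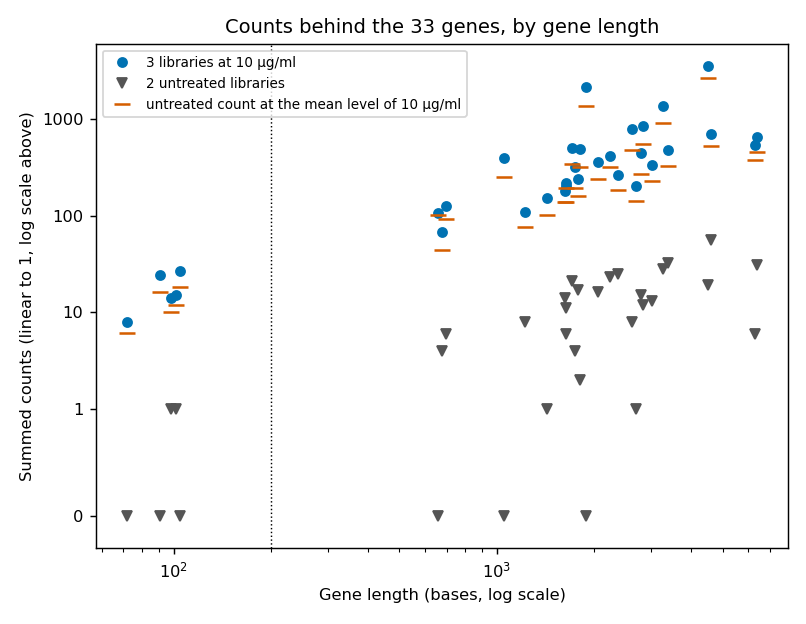
Summed counts of each of the 33 genes against gene length in bases (log scale); circles are sums over the 3 libraries at 10 µg/ml, triangles sums over the 2 untreated libraries, and dashes the count that the untreated libraries would hold at the mean RPKM of 10 µg/ml. The vertical axis is linear up to 1 and logarithmic above, and the dotted line marks 200 bases. The 5 genes of 72 to 105 bases rest on 8 to 27 counts at 10 µg/ml, and the others on 68 to 3583.

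The libraries at 1 µg/ml show how the genes stood at a dose that the choice left out. In 31 of the 33 genes (93.9%) all 3 libraries at 1 µg/ml lay above both untreated ones. This held for 17.8% of all 17108 genes and for 13.6% of the 3039 near-silent ones. The exceptions were ranks 12 and 16. At rank 12 the libraries had 1.15, 1.07 and 0.049 RPKM at 1 µg/ml, against 0.048 and 0.074 RPKM untreated, so replicate 3 fell among the untreated values. The short gene at rank 16 had 0.327, 0.135 and 0 RPKM at 1 µg/ml, from 7, 1 and 0 counts, against 0 and 0.095 RPKM untreated. The untreated libraries were chosen low in these genes, which favours this order for any near-silent gene. The 33 were also chosen as expressed at 10 µg/ml, whereas 2327 of the 3039 were under 0.1 RPKM in all libraries there. The shares thus set expressed genes beside mostly unexpressed ones.

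In 13 of the 33 genes (39.4%) each library at 1 µg/ml already reached 0.3 RPKM, the level asked of the higher dose. Across the 3039 near-silent genes this was so in 20 (0.658%), and 7 of those are not among the 33. At 10 µg/ml the lowest library of these 7 ran from 0 to 0.290 RPKM. Here too the 33 were chosen as expressed at 10 µg/ml and most of the 3039 were not, so the shares compare unlike genes. Of the remaining 20 among the 33, 13 reached 0.3 RPKM in 2 of 3 libraries at 1 µg/ml, 5 in 1 and 2 in none. The 2 that reached it in none were at ranks 28 and 30. Rank 28 had 0.110, 0.260 and 0.078 RPKM at 1 µg/ml, against 0 and 0.007 RPKM untreated. Rank 30 had 0.296, 0.163 and 0.201 RPKM at 1 µg/ml, against 0 and 0.058 RPKM untreated. Both were thus above untreated cells in every library at the lower dose while short of 0.3 RPKM in each. The count of 13 became 20 without replicate 3 at 1 µg/ml. It became 10 when only genes of at least 200 bases were kept, since ranks 9, 10 and 25 are shorter. Ranks 9 and 25 reached the limit with only 2 counts in replicate 2 at 1 µg/ml.

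Of the 33 genes, 29 had enough counts to be tested across all genes, and the 4 that did not were the short ones at ranks 9, 16, 19 and 25. At 1 µg/ml against untreated cells, 17 of the 29 rose and 0 fell at an adjusted p under 0.05 (edgeR's quasi-likelihood test, p-values adjusted by Benjamini-Hochberg over 14085 genes). Among all genes tested, 1.51% rose, and 2.81% changed in either direction. The genes had been chosen for low untreated values and passed the filter through the libraries with DAN, so their share and the p-values of single genes among them are given as a description. Of the 17 genes, 13 had more than 3 untreated counts, and their log2 fold changes ran from 2.84 to 6.92. The remaining 12 genes had adjusted p from 0.0507 to 0.127 (edgeR). All 29 were higher at 1 µg/ml with an unadjusted p under 0.05 (edgeR), against 26% of all genes tested in either direction. The choice of low untreated values favours such a result, so nothing is read from this share. The median log2 fold change of the 22 tested genes with more than 3 untreated counts was 3.57.

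With the untreated values chosen low, ENSGALG00000014994 had an adjusted p of 0.0309 at 1 µg/ml against untreated (edgeR; higher in 3 of 3 libraries). ENSGALG00000020679 had a log2 fold change of 6.92 and a standard error of 1.43 (adjusted p = 0.0419, edgeR; higher in 3 of 3 libraries). The calls changed with single libraries and with the spread assumed, among the 33 genes and among all genes together. Without replicates 1, 2 and 3 at 1 µg/ml, 0, 1 and 1 of the 33 were called, and 1, 3 and 1 of all genes, against 17 and 396 with all libraries. Leaving out replicates 1, 2 and 3 at 10 µg/ml, whose spread enters the same fit, gave 0, 3 and 0 of the 33, and 0, 15 and 0 of all genes. Without untreated replicate 2 the counts were 14 and 825, and without untreated replicate 3 they were 21 and 3469. DESeq2 called 27 of the 29 tested, all higher, and 2157 of 14044 genes (1060 higher, 1097 lower). When the fit held the 2 groups alone or used voom quality weights 0 genes were called, and with the replicate number as a block 0 of the 33 and 2 of all genes.

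The mean at 1 µg/ml was 0.176 to 3.41 times the mean at 10 µg/ml, with a median of 0.685. The 3.41 was that of rank 11, where it came from 1 library, and 32 genes were under 1.2. Whether this ratio differed between genes was not tested. The ratio was under 0.5 in 11 genes, from 0.5 to 1 in 19 and above 1 in 3. Choosing genes for high values at 10 µg/ml favours ratios under 1. In 12 of the 33 genes (36.4%) every library at 10 µg/ml lay above every library at 1 µg/ml, against 10.4% of all genes, and in the other 21 the doses overlapped. The opposite order held for 0 of the 33 and for 12.3% of all genes. Since the rule asked for high values in the libraries at 10 µg/ml, nothing is read from these shares.

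**Figure D3:**
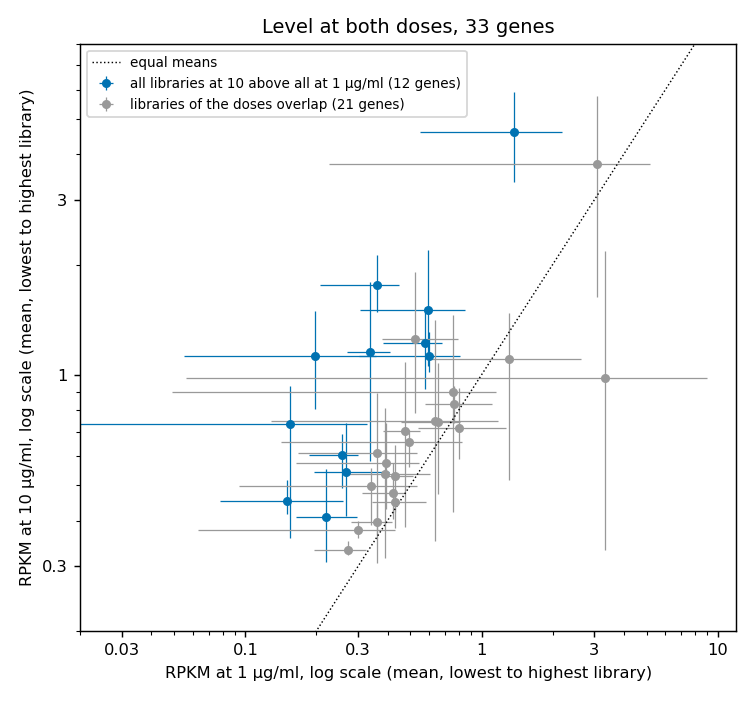
Mean RPKM at 10 µg/ml (vertical) against mean RPKM at 1 µg/ml (horizontal) for the 33 genes, both on log scales; bars run from the lowest to the highest of 3 libraries and are cut at 0.02 where a library had none. In 12 genes, in blue, all libraries at 10 µg/ml exceeded all at 1 µg/ml, and the 12 lie above the dotted line of equal means. Ranks 9 and 16 among them are short genes with few counts.

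The 12 genes whose doses did not overlap stood 1.85-fold to 5.68-fold higher at 10 than at 1 µg/ml, with a median of 2.78-fold. They were at ranks 1, 3, 4, 6, 7, 8, 9, 16, 21, 23, 28 and 30. Ranks 9 and 16 are short genes whose order rests on few reads. Rank 9 had 13, 2 and 6 counts at 1 µg/ml and 13, 4 and 7 at 10 µg/ml. Rank 16 had 7, 1 and 0 counts at 1 µg/ml and 4, 4 and 7 at 10 µg/ml. The gene at rank 3 had 0.011 and 0.077 RPKM untreated, 0.431, 0.207 and 0.449 RPKM at 1 µg/ml, and 2.12, 1.68 and 1.48 RPKM at 10 µg/ml. Its lowest library at the higher dose was more than 3 times its highest at the lower one. Rank 7 had 0.014 and 0.022 RPKM untreated, 0.411, 0.268 and 0.334 RPKM at 1 µg/ml, and 1.79, 0.582 and 1.09 RPKM at 10 µg/ml. Rank 6 had 0.006 and 0.038 RPKM untreated, 0.678, 0.674 and 0.382 RPKM at 1 µg/ml, and 1.53, 0.912 and 1.21 RPKM at 10 µg/ml. These 3 genes had counts in each library at the lower dose and were higher in each at the upper one. Ranks 1, 4, 6 and 9 belong both to these 12 and to the 13 genes at 0.3 RPKM or more throughout 1 µg/ml.

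In a further 12 genes the mean at 1 µg/ml lay within 0.8 to 1.2 times that at 10 µg/ml. Rank 29, of 6380 bases, had 0.051 and 0.020 RPKM untreated, 0.580, 0.367 and 0.342 RPKM at 1 µg/ml, and 0.434, 0.421 and 0.490 RPKM at 10 µg/ml. The doses overlapped. Its libraries at 1 µg/ml lay above the untreated ones, an order that the choice of low untreated values favours. At 10 µg/ml that order was fixed by the rule. Rank 27 likewise had 0.012 and 0.036 RPKM untreated, 0.475, 0.311 and 0.475 RPKM at 1 µg/ml, and 0.573, 0.445 and 0.405 RPKM at 10 µg/ml. Rank 17 averaged 0.717 ± 0.180 RPKM at 10 µg/ml and 0.799 ± 0.408 RPKM at 1 µg/ml (SD, n = 3 each). For such genes the 3 libraries at each dose do not show a difference between the doses, and do not show its absence either.

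The libraries at 10 µg/ml had been chosen high in these genes, which tilts the direct test of 10 against 1 µg/ml upward, so its values on the 33 are a description and nothing is read from their shares. The test called 0 of the 29 genes and 0% of the 14085 genes tested (edgeR's quasi-likelihood test). The smallest adjusted p among the 29 was 0.303. Before adjustment 9 of the 29 (31.0%) had a p under 0.05, all higher at 10 µg/ml, against 11.4% of all genes tested in either direction. The 9 were ranks 1, 3, 4, 5, 6, 7, 8, 21 and 28. Log2 fold changes of the 29 ran from -1.81 to 2.52, with a median of 0.54, and were above 0 in 26. For ENSGALG00000014994 the log2 fold change at 10 against 1 µg/ml was 1.75 with a standard error of 0.475 (adjusted p = 0.333, edgeR; 0.0160 with DESeq2, where 17 alternatives gave 0.0160 to 0.906). For ENSGALG00000020679 it was 0.29 with a standard error of 0.853 (adjusted p = 0.921, edgeR), and it turned negative without replicate 3 at 1 µg/ml (-0.25) or without replicate 2 at 10 µg/ml (-0.15). DESeq2 called 5 of the 29 and 248 of all genes in this comparison.

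The dishes of 1 dose did not carry the 33 genes evenly. At 10 µg/ml the highest library was 1.76 times the lowest in the median gene, and at 1 µg/ml 2.35 times. Among 6273 other genes with a mean of 0.2 to 5 RPKM over the libraries with DAN, these medians were 1.49 for the higher dose and 1.48 for the lower one. The 6273 were not matched to the 33 in level within this range or in length. The short genes among the 33 held only 0 to 20 counts per library at 1 µg/ml, and the part of counting error was not tested. The rule kept out genes with a low library at 10 µg/ml, which narrows the spread there but not at 1 µg/ml. The highest library exceeded the lowest more than 3 times in 5 genes at 10 µg/ml and in 13 at 1 µg/ml (rank 16, whose lowest library at 1 µg/ml was at 0, is left out of the ratios at that dose). Replicate 3 at 1 µg/ml was the lowest of its group, or tied for it, in 19 of the 33 genes (57.6%), replicate 2 in 11 and replicate 1 in 4, with a tie of replicates 1 and 3 at rank 23. The same library was the lowest or tied in 41.6% of the 6273 other genes.

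The largest spread was at rank 11, a gene of 659 bases with no untreated count. It had 0.955, 9.01 and 0.056 RPKM at 1 µg/ml, from 132, 431 and 3 counts, and 0.333, 2.18 and 0.433 RPKM at 10 µg/ml, from 24, 62 and 21 counts. Replicate 2 was by far the highest library at both doses. Its mean at 1 µg/ml, 3.41 times that at 10 µg/ml, thus came from 1 library. Replicate 2 was also the highest at both doses, and replicate 3 the lowest at 1 µg/ml, at ranks 2, 14 and 24, so that 4 of the 33 genes (12.1%) had this order, against 8.03% of the 6273 other genes. Rank 14 had 0.022 and 0.024 RPKM untreated, 0.598, 1.17 and 0.128 RPKM at 1 µg/ml, and 0.352, 1.41 and 0.473 RPKM at 10 µg/ml.

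A library at 1 µg/ml fell below 0.1 RPKM, the limit set for untreated cells, in 7 genes, at ranks 8, 11, 12, 16, 26, 28 and 32. In 6 of these it was replicate 3. The exception was rank 32, of 6313 bases, with 0.408, 0.063 and 0.428 RPKM at 1 µg/ml, against 0.011 and 0.003 RPKM untreated. Here replicate 2 was the low library, and at 10 µg/ml the 3 libraries were close, at 0.358, 0.374 and 0.400 RPKM. No single dish was therefore low in all of these genes.

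**Figure D4:**
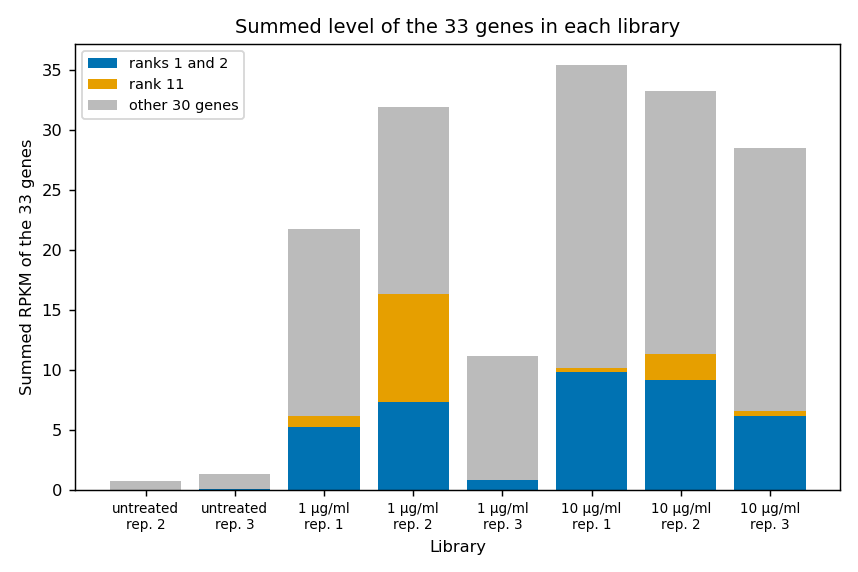
Summed RPKM of the 33 genes in each library (bars start at 0), split into ranks 1 and 2, rank 11 and the other 30 genes. Without ranks 1, 2 and 11 the sums are 0.703 and 1.26 untreated, 15.6, 15.6 and 10.3 at 1 µg/ml, and 25.3, 22.0 and 21.9 at 10 µg/ml.

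Ranks 1, 2 and 11 held much of the unevenness between dishes in the summed level. Over the other 30 genes the untreated libraries had 0.703 and 1.26 RPKM, those at 1 µg/ml had 15.6, 15.6 and 10.3, and those at 10 µg/ml had 25.3, 22.0 and 21.9. Replicate 3 remained the lowest at 1 µg/ml, and the doses no longer overlapped. The genes left out were picked after their values were seen. With only ranks 1 and 2 left out, replicate 2 at 1 µg/ml (24.6) still overlapped the libraries at 10 µg/ml (22.3 to 25.6). The separation thus depended on leaving out rank 11, and nothing is read from it. Between 1 and 10 µg/ml the order of these sums shares the libraries at 10 µg/ml with the rule, and it is given without a test. The part of cell number, cell composition and amplification from few cells in the differences between dishes was not tested.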

How the data were processed

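The authors deposited a table of raw read counts (whole numbers, 1 column per library) and a matching table of RPKM, both by Ensembl ID. Per the submitters' processing notes, the build was galGal4 and the tools included edgeR 3.12.0, bedtools, FastQC 0.10.1 and TopHat2 2.0.13, with no role given for each. Libraries were made with a SMART-seq v4 kit and Nextera XT, per the labels' protocols. This chemistry has no molecular identifiers and does not mark strand, so intervals cover counting error only, and reads of overlapping genes cannot be told apart. Floors cover the counting error of the untreated libraries only. Between libraries, the deposited RPKM followed totals adjusted by TMM within 0.000292% (median over 5133 genes above 5 RPKM in all libraries). Gene lengths come from the ratio of the deposited counts to RPKM.

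The members, lists and tests were chosen with earlier results of these data known. Counts were fitted with edgeR 4.0.16 in R 4.3.3 (TMM, filterByExpr with a minimum count of 10, a quasi-likelihood fit of all 8 libraries with 1 mean for each group and no replicate block). Tests were 2-sided with Benjamini-Hochberg adjustment and a threshold of 0.05. The standard errors given with edgeR were derived from the test, as the absolute log2 fold change divided by the square root of its F statistic. Both contrasts were first tested on simulated data with known changes. The changed genes there were drawn at random from those passing the filter, not chosen as near silent. Nothing is read from that simulation for the genes described here. Alternatives used DESeq2 1.42.0, limma 3.58.1 (voom with quality weights, and log2 of RPKM plus 0.1 or 1) and other settings. Count ratios are summed counts divided by the summed TMM-adjusted totals of each group. Their intervals are exact conditional (Clopper-Pearson) ones at 95%, scaled in the same way. The genes given by ID are the 2 with the highest mean RPKM at 10 µg/ml, by a rule that allows no more without symbols; other genes are given by rank, and those described singly were picked after their values were seen. Pairs of libraries within a group differed beyond sampling noise. The chi-square per degree of freedom was 341 for the 2 untreated libraries, and 67.9 to 148 for pairs at the same DAN dose. This sets the counts against counting error alone, so it cannot show that the samples are independent. Each library was counted as 1 replicate, following the labels, which speak of biological replicates.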

Additional observations from a re-analysis of the deposited data

How the results depend on the processing

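The number of genes kept (33) followed the limits: it was 18 and 81 with untreated limits of 0.05 and 0.2 RPKM, 55 and 13 with limits of 0.2 and 0.5 RPKM at 10 µg/ml, 27 with at most 3 counts per untreated library, and 39 to 182 with 1 library left out of the rule. The 13 genes at 0.3 RPKM or more throughout 1 µg/ml became 26 and 4 with limits of 0.1 and 0.5 RPKM, 25 by the mean of the libraries and 13 to 20 with 1 library left out. Keeping only genes of at least 200 bases, chosen after seeing the data, left 28 and 10, and 17 calls. At 1 µg/ml against untreated, calls among the 33 genes (17) and all genes (396) were 27 and 2157 with DESeq2, 0 and 0 with only the groups compared (2841 genes had an unadjusted p under 0.05), 0 and 0 with voom quality weights (1747 genes), and 7 and 706 on log2(RPKM + 1). With the replicate block they were 0 and 2. Leaving out 1 library gave 0 to 21 and 0 to 3469. The cause was not tested. With RLE factors, library totals alone, no low-count filter or log2(RPKM + 0.1) the counts stayed within 1.5 times. At 10 against 1 µg/ml the calls (0 and 0) were 5 and 248 with DESeq2, and 0 and 0 to 1 with 1 library left out. The log2 fold change of ENSGALG00000020679 there (0.29) ran from -0.25 to 0.88 with 1 library left out, and was below 0 without replicate 3 at 1 µg/ml (-0.25) or replicate 2 at 10 µg/ml (-0.15).

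The labels do not say that a replicate number marks a shared embryo, batch or day. Deviations of same-numbered libraries from their group means correlated at 0.0563, 0.131 and 0.185 across genes between the doses. Those of unlike-numbered libraries between the doses correlated lower, at -0.145 to 0.0442. Deviations sum to 0 within a group, which pulls these values down when same-numbered ones are above 0, so they are no separate comparison. With untreated libraries, same-numbered ones correlated at -0.0252 to 0.0299 and unlike-numbered ones at -0.0635 to 0.0635. The deviations of the 2 untreated libraries mirror each other. These values do not settle whether the numbers mark pairs. The main fit did not take them as pairs, and the fit with the replicate block, given above, called far fewer genes at 1 µg/ml against untreated. At 1 µg/ml ENSGALG00000014994 was called under 9 of 17 alternatives and ENSGALG00000020679 under 5 of 17, with adjusted p from 3.57e-08 to 0.397 and from 7.42e-06 to 0.768 over the tools named. Depth limits the 5 genes under 200 bases most.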
